A study of Homo sapiens with 8 samples.

Results

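The S100 genes are small calcium-binding proteins, most of which lie side by side on the long arm of chromosome 1. The data described here are the messenger RNA levels of 8 of them: S100A8, S100A9, S100A12, S100A4, S100A6, S100A10, S100A11 and S100A13. They were taken by name from a count table of 33045 gene names, and all 8 had reads. The 8 were selected on their measured response to the inhibitor in these libraries, so their changes with the inhibitor are given as values, with no p and no call. All 8 passed the filter on low counts.

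RNA sequencing was done on a pair of established acute myeloid leukemia lines grown in flasks and given either vehicle or 0.5 µM DDP38003, which blocks the histone demethylase LSD1, the product of KDM1A. KASUMI-1 carries the RUNX1::RUNX1T1 fusion, is described by the study as sensitive to LSD1 inhibition (LSD1i), and its samples date from 6 and 72 h. THP-1 is a monocytic line with a KMT2A fusion, is described as resistant, with samples from 24 and 72 h. The times were picked in each line for an effect on the kinase mTOR that followed the inhibitor. There was 1 library for every line, agent and time, 8 in all, and sensitivity and line cannot be told apart, since each class was 1 line.

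S100A8 and S100A9 pair to form calprotectin, the main cytosolic protein of neutrophils and monocytes, and S100A12 (calgranulin C) is found in the same cells. Once released they act as alarmins, proteins that tell other cells of damage, through the receptors TLR4 (with its partner LY96) and RAGE (gene AGER). S100A10 is the partner of annexin A2 at the plasma membrane, S100A4 and S100A6 bind cytoskeletal and signalling proteins, S100A11 binds annexin A1, and S100A13 takes part in the export of FGF1 and IL1A. In myeloid cells S100A8, S100A9 and S100A12 are widely used as signs of maturation toward monocytes and neutrophils.

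In the gene models of the deposited table (NCBI36) S100A9 occupied chr1:151596954-151600126 on the plus strand, S100A12 chr1:151612805-151614699 and S100A8 chr1:151629132-151630173, both on the minus strand. These 3 genes fell within 33.2 kb. S100A6 (chr1:151773699-151775344), S100A4 (chr1:151782713-151789236) and S100A13 (chr1:151857899-151873192) formed a stretch of 99.5 kb, and S100A10 (chr1:150222011-150233338) and S100A11 (chr1:150271606-150276135) one of 54.1 kb, all on the minus strand. Exons of S100A13 overlap those of S100A1 and C1orf77. The counting recorded no strand option, so reads in the shared parts cannot be assigned to a single gene by strand.

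The stretches before the start sites of the 3 alarmin genes are shown because these genes moved together in THP-1. They come from RefSeq on GRCh38.p14, another build than that of the table, and all 8 genes matched, with 12 start sites. Each is read 5′ to 3′ on the gene's own strand, and capitals mark matches of 5 motifs searched on both strands in the 250 bases before a start. The motifs were TTNNGCAA for C/EBP factors, GAGGAA for PU.1 and other ETS factors, AATCNNNGC for GFI1, TGANTCA for AP-1 and TATAAA for the TATA box. The window of S100A8 is that of its first listed start (chr1:153391189-153391438, minus strand), that of S100A9 is chr1:153357604-153357853 (plus strand), and that of S100A12 is chr1:153375650-153375871 (minus strand), without 28 bases that lie in an exon.
S100A8: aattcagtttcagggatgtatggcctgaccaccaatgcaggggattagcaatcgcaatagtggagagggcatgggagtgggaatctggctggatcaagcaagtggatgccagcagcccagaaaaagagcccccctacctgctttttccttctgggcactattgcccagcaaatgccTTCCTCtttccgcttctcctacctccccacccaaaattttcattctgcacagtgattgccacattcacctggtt
S100A9: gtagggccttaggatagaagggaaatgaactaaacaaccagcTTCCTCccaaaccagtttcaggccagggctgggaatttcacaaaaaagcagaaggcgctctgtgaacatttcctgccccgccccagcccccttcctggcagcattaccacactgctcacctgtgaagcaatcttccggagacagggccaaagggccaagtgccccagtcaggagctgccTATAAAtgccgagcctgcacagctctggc
S100A12: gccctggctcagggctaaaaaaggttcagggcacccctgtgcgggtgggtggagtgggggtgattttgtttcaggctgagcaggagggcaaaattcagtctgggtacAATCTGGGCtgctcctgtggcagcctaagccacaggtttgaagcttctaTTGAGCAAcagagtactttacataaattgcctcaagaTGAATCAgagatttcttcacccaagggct
S100A8 and S100A9 both held GAGGAA on the minus strand, at -74 from the first start of S100A8 and at -208 in S100A9, a motif found in 23.6% of 35116 windows of this length. S100A9 had TATAAA at -29, and so did the second start of S100A8, 115 bases downstream of the first. S100A12 had TTGAGCAA at -94, AATCTGGGC at -143, TGAATCA at -57 and, in the exonic part not shown, TATAAA at -8. The C/EBP motif was in 9.05% of all windows, the GFI1 motif in 9.65%, the AP-1 motif in 6.57% and TATAAA in 10.7%. Of the other 5 genes S100A4 and the second start of S100A13 held TATAAA, S100A11 held the C/EBP motif, and none of the 5 motifs was found in the windows of S100A6 and S100A10. No 2 matches overlapped in the printed windows. A match is a string of letters and was not tested as a binding site.

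Counted reads ranged from 23722972 to 45970766 per library. Levels are given as CPM (reads scaled by library size, with TMM factors). RUNX1T1, a marker of the KASUMI-1 fusion, stood at 76.2 to 105.8 CPM in KASUMI-1 and at 0.119 to 0.201 CPM in THP-1. HOXA9, high in leukemias with a KMT2A fusion, was at 53.2 to 56.3 CPM in THP-1 and at 0.919 to 1.51 in KASUMI-1, while MEIS1, often high with it, had 5 reads or fewer in every library of either line. KDM1A itself, which the inhibitor blocks as a protein, was at 93.5 to 263.5 CPM, and its fitted log2 change with LSD1i was -0.17 ± 0.13 (approximate standard error) in KASUMI-1 and -0.07 ± 0.13 in THP-1. Of the 2 keratinocyte markers neither had a read, the 3 erythroid markers had 1 read in all, and the 2 fibroblast markers had at most 10 reads in a library. Whether libraries come from separate cultures is not in the labels, and p-values therefore rest on the spread among these samples alone. With 1 library per line, agent and time, that spread comes from differences between the times of a line. In the fit of all libraries these are differences of the LSD1i effect, and in fits of a single agent differences of level. It is not a spread between repeated cultures. When a pair is left out of that fit, the remaining pair of its line is fitted exactly. The spread of a gene then comes from the other line. A call kept or lost in such a fit therefore does not measure the spread within the line that lost a pair.

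In THP-1 all 3 alarmin transcripts were far higher with the inhibitor at both times, and in KASUMI-1 they were low in all 4 libraries. S100A8 had 6150 reads (129.3 CPM) in THP-1 vehicle and 30398 (679.5 CPM) in THP-1 LSD1i at 24 h, and 2126 (50.5 CPM) and 92319 (2608 CPM) at 72 h. In KASUMI-1 it had 45 reads (1.18 CPM) in vehicle and 32 (0.814 CPM) in LSD1i at 6 h, and 55 (2.45 CPM) and 90 (2.19 CPM) at 72 h. Each THP-1 LSD1i library was above each THP-1 vehicle library, and each of the 4 KASUMI-1 libraries was below all 4 of THP-1.

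S100A9 showed the same order of libraries in THP-1. It stood at 256.4 CPM in THP-1 vehicle and 1315 CPM in LSD1i at 24 h, and at 122.4 and 5550 CPM at 72 h. In KASUMI-1 its 4 values lay between 5.09 and 6.30 CPM, with the vehicle library the higher of the 2 at each time (ratio of LSD1i to vehicle 0.808, interval 0.666 to 0.979, at 6 h and 0.858, interval 0.691 to 1.07, at 72 h).

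S100A12 had the largest relative span. It had 183 reads (3.85 CPM) in THP-1 vehicle and 2488 (55.6 CPM) in LSD1i at 24 h, and 29 reads (0.689 CPM) and 8804 (248.7 CPM) at 72 h. KASUMI-1 had 2 reads in vehicle and 0 in LSD1i at 6 h, and 1 and 6 reads at 72 h. The count of 0 allows up to 3 reads, or 0.0763 CPM, and these intervals and limits cover counting error only. The interval of the ratio of LSD1i to vehicle held equality in both KASUMI-1 pairs. It ended at 5.16 at 6 h, below the ratios of both THP-1 pairs, and ran from 0.398 to 151.0 at 72 h. Between the KASUMI-1 LSD1i libraries the 6 reads of S100A12 at 72 h stood 1.92-fold above the limit at 6 h. The counting interval of the 72 h to 6 h ratio began lower, at 1.13.

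**Figure D1:**
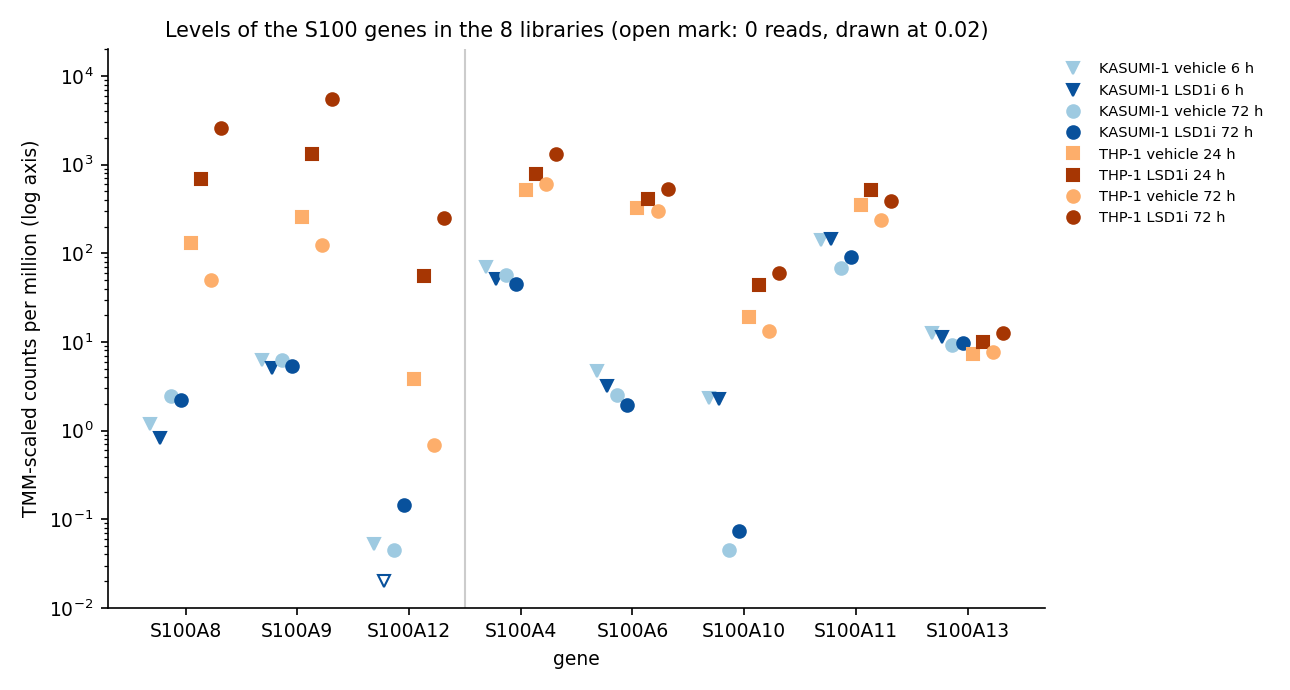
Levels of the 8 S100 genes (x axis) in each of the 8 libraries, in TMM-scaled CPM on a log axis; colour gives line and agent, and the mark gives the time. In THP-1 the LSD1i libraries at 24 and 72 h lie above both vehicle libraries for every gene, S100A9 reaching 5550 CPM. The genes were selected on this response, and the share of all genes with this order is not given. S100A10 in KASUMI-1 falls from 2.34 and 2.26 CPM at 6 h to 0.0445 and 0.0731 CPM at 72 h.

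The ratio of LSD1i to vehicle was close for S100A8 and S100A9 within each THP-1 pair and larger for S100A12. At 24 h it was 5.26 for S100A8 (95% counting interval 5.11 to 5.40), 5.13 for S100A9 (5.03 to 5.23) and 14.5 for S100A12 (12.4 to 16.9). At 72 h it was 51.6 (49.5 to 53.9), 45.4 (44.1 to 46.6) and 361.0 (251.2 to 539.4). A pair has 1 library per agent, so these intervals say nothing of variation between cultures.

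Part of the wider gap at 72 h lay in the vehicle libraries. From 24 to 72 h in THP-1 vehicle S100A8 was 2.56-fold lower, S100A9 2.10-fold lower and S100A12 5.58-fold lower, while under LSD1i they were 3.84-fold, 4.22-fold and 4.47-fold higher. At a fold of 2 or more, with a mean of at least 2 CPM and an interval clear of equality, 3 of 8 genes were lower with time in vehicle, against 0.311% of all genes. The same 3 were higher with time under LSD1i, against 0.876%. These ratios share libraries with the pairs above, on whose response the genes were selected. Such a selection favours low vehicle and high LSD1i levels, so these counts are a description and no separate support. Per the file headers the alignments of the 72 h libraries sat in a folder of their own, and culture time cannot be told apart from anything else that goes with that folder.

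Measured per length of transcript, S100A9 was the third most abundant name of the table in THP-1 LSD1i at 72 h, at 9635 RPKM (reads scaled by transcript length and library size). S100A8 was at rank 9 (4939 RPKM) and S100A12 at rank 170 (509.6 RPKM). In THP-1 vehicle at 72 h the ranks were 325, 771 and 10672. In KASUMI-1 S100A9 ranked between 5087 and 5852. The 3 genes together took 0.847% of all counted reads in THP-1 LSD1i at 72 h, 0.215% in LSD1i at 24 h, and 0.0427% and 0.0191% in the vehicle libraries at 24 and 72 h.

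The balance of the calprotectin subunits spanned a narrow range in THP-1. S100A8 per S100A9, as a ratio of RPKM, was 0.55 and 0.564 in THP-1 vehicle and LSD1i at 24 h, and 0.450 and 0.513 at 72 h. S100A12 per S100A9 went from 0.0177 to 0.0499 at 24 h and from 0.00665 to 0.0529 at 72 h. In KASUMI-1 the S100A8 to S100A9 ratio was 0.205 and 0.175 at 6 h and 0.432 and 0.450 at 72 h.

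The other 5 genes were also higher with LSD1i in each THP-1 pair, by less. S100A10 went from 19.0 to 44.1 CPM at 24 h (ratio 2.32, interval 2.14 to 2.51) and from 13.4 to 59.3 CPM at 72 h (4.43, 4.04 to 4.87). S100A4 went from 515.3 to 781.0 CPM at 24 h (1.52, 1.49 to 1.54) and from 609.9 to 1328 CPM at 72 h (2.18, 2.15 to 2.21). The ratios of S100A6, S100A11 and S100A13 lay between 1.28 and 1.48 at 24 h and between 1.66 and 1.80 at 72 h.

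S100A6 stood at 319.9 CPM in THP-1 vehicle and 408.5 CPM in LSD1i at 24 h, and at 297.4 and 534.3 CPM at 72 h. S100A11 stood at 348.6 and 517.0 CPM at 24 h and at 236.5 and 392.5 CPM at 72 h. S100A13 was at 7.23 and 9.95 CPM at 24 h and at 7.63 and 12.7 CPM at 72 h. For each of these 3 genes both LSD1i libraries were above both vehicle libraries, a response on which the genes were selected.

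On the log2 scale (prior count of 2) the 3 alarmin genes spanned 2.36 to 3.84 at 24 h and 5.50 to 8.39 at 72 h. The other 5 spanned 0.35 to 1.21 and 0.73 to 2.14. The genes were selected on these responses, so the gap between the 2 sets is a description. With 1 library per agent the gap was not tested. The ratio was above 2 for the 3 alarmin genes and S100A10 at both times, and for S100A4 at 72 h.

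In KASUMI-1 the ratio of LSD1i to vehicle lay between 0.686 and 1.36 in both pairs for the 6 genes other than S100A10 and S100A12. S100A4 went from 70.8 to 50.8 CPM at 6 h (ratio 0.718, interval 0.677 to 0.761) and from 57.5 to 44.8 CPM at 72 h (0.779, 0.725 to 0.837). S100A6 went from 4.67 to 3.21 CPM (0.686, 0.542 to 0.867) and from 2.49 to 1.92 CPM (0.772, 0.541 to 1.11). For both the LSD1i library was the lower at each time, the reverse of their order in THP-1. S100A11, at 139.9 and 144.5 CPM at 6 h, was at 67.4 CPM in vehicle and 91.8 CPM in LSD1i at 72 h (1.36, 1.28 to 1.45). S100A13 was at 12.4 and 11.3 CPM at 6 h and at 9.12 and 9.84 CPM at 72 h, with intervals that held equality in both pairs.

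**Figure D2:**
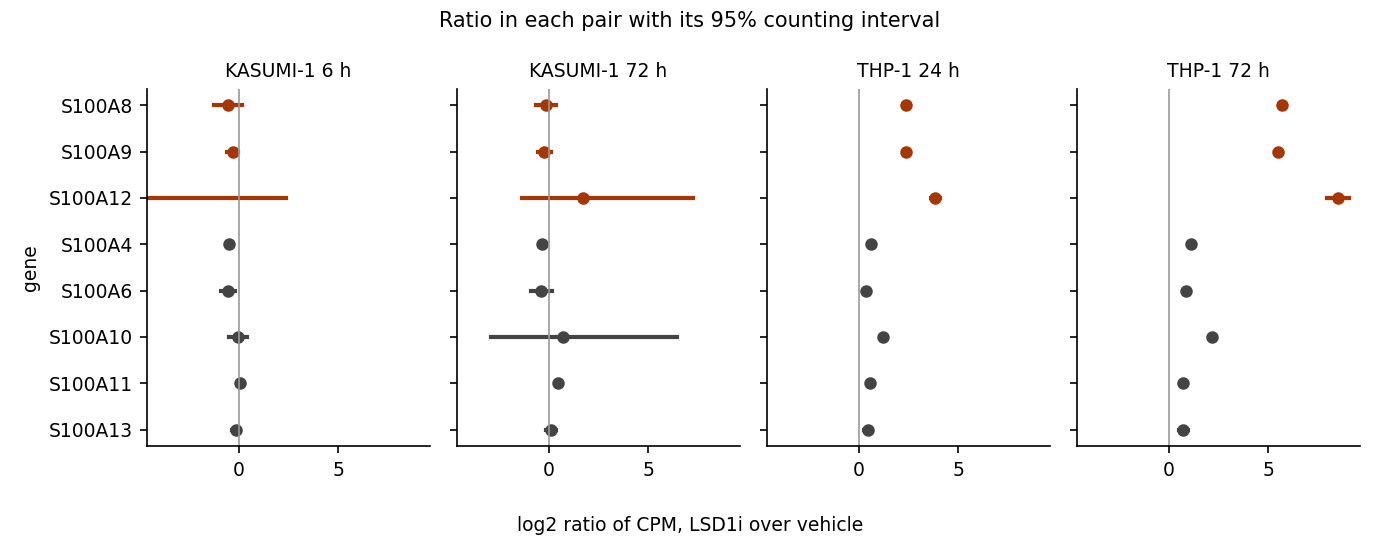
Ratio of LSD1i to vehicle CPM for each gene (y axis) in each pair, on a log2 x axis, with the 95% counting interval as a line (red: S100A8, S100A9 and S100A12; grey: the other 5). In THP-1 every point is right of 0 and S100A12 lies farthest, at a ratio of 14.5 at 24 h and 361.0 at 72 h; the line without a point in KASUMI-1 at 6 h is S100A12, with 2 vehicle reads and 0 LSD1i reads, and its lower end is cut by the axis.

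The fit across 16060 genes had a term for each pair, the block, and gave 1 LSD1i coefficient per line over both of its pairs. Its values follow from the contrasts that were in view when the genes were proposed, and they are given as a description. In THP-1 the log2 change was 4.03 ± 0.50 for S100A8, 3.93 ± 0.48 for S100A9 and 5.70 ± 0.60 for S100A12. It was 1.67 ± 0.18 for S100A10, 0.86 ± 0.15 for S100A4, 0.65 ± 0.13 for S100A11, 0.60 ± 0.14 for S100A6 and 0.60 ± 0.16 for S100A13. The median was 4.03 over the alarmin genes and 0.65 over the other 5, beside -0.01 over all genes tested.

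The size of these values depended on the pair. With the 24 h pair alone S100A8 was fitted at 2.38, S100A9 at 2.34 and S100A12 at 3.84, and with the 72 h pair alone at 5.67, 5.48 and 8.47. S100A10 was at 1.20 with the 24 h pair and 2.13 with the 72 h pair, S100A4 at 0.59 and 1.10, and S100A6 at 0.34 and 0.82. S100A11 (0.55 and 0.71) and S100A13 (0.45 and 0.71) were closer between the pairs.

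In KASUMI-1 S100A4 changed by -0.42 ± 0.15 and S100A6 by -0.48 ± 0.20, the largest values among the genes with more than 10 reads in each KASUMI-1 library. S100A8 (-0.31 ± 0.69), S100A9 (-0.27 ± 0.48), S100A11 (0.24 ± 0.14) and S100A13 (-0.02 ± 0.17) had smaller values. S100A10 (-0.02 ± 0.33) and S100A12 (0.29 ± 2.98) rest on few reads.

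The difference of the coefficients, THP-1 minus KASUMI-1, was 4.34 ± 0.86 for S100A8, 4.19 ± 0.67 for S100A9 and 5.41 ± 4.25 for S100A12. It was 1.69 ± 0.38 for S100A10, 1.28 ± 0.21 for S100A4, 1.07 ± 0.24 for S100A6, 0.62 ± 0.23 for S100A13 and 0.41 ± 0.19 for S100A11. Leaving out 1 pair moved it between 2.71 and 6.00 for S100A8, between 2.62 and 5.76 for S100A9 and between 3.57 and 9.89 for S100A12. For S100A10 the range was 0.99, without the KASUMI-1 6 h pair, to 2.14.

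The lines already differed in these genes without the inhibitor, a comparison of 4 vehicle libraries that uses no LSD1i library. These libraries are also the vehicle side of the response on which the genes were selected. The p-values below are therefore a description and no separate support. S100A10 and S100A12 passed the filter on low counts through their THP-1 libraries alone and are given with no p. Of the other 6 genes 5 were higher in THP-1 at an adjusted p under 0.05 (edgeR's quasi-likelihood test), and 0 lower, where 30.1% and 26.4% of 15456 genes were. S100A6, at 320 and 297 CPM in THP-1 and 4.67 and 2.49 CPM in KASUMI-1, differed by 6.40 ± 0.29 on the log2 scale (adjusted p = 4.78e-08), the largest value of the 8. S100A8 differed by 5.70 ± 0.49 (adjusted p = 4.60e-06), S100A9 by 4.93 ± 0.34 (adjusted p = 9.13e-07), S100A4 by 3.14 ± 0.19 (adjusted p = 2.78e-07) and S100A11 by 1.5 ± 0.31 (adjusted p = 0.00199). Without the THP-1 vehicle 24 h library S100A8 stood at 4.87 and S100A9 at 4.31. S100A11 stood at 1.07 without the KASUMI-1 vehicle 72 h library and at 2.12 without the 6 h one.

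S100A12 had 3 reads in the KASUMI-1 vehicle libraries together and 212 in those of THP-1, a ratio of 47.7 (16.1 to 233.3 by counting). S100A10 differed by 3.61 ± 0.69, a value that rests on the KASUMI-1 vehicle 6 h library (89 reads, and 1 read at 72 h): it was 8.40 without that library and 2.79 without the 72 h one. S100A13 alone was not higher in THP-1: it was at 12.4 and 9.12 CPM in KASUMI-1 vehicle and 7.23 and 7.63 CPM in THP-1 vehicle, a difference of -0.54 ± 0.23 (adjusted p = 0.0686 by edgeR). Without the KASUMI-1 vehicle 72 h library that difference was -0.74 (adjusted p = 0.00646), and without the 6 h library -0.30 (adjusted p = 0.343), with the lone library of the line assumed to vary like the others. The sampled times differ between the lines (6 and 72 h against 24 and 72 h).

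Under LSD1i the gap between the lines was wider for the alarmin genes. Summed over 2 libraries S100A8 had 122 reads in KASUMI-1 and 122717 in THP-1, a ratio of 1009 (interval 844.8 to 1215), against 55.9 (45.9 to 68.8) in vehicle. S100A9 had a ratio of 612.5 (556.5 to 675.8) against 30.9 (27.9 to 34.3), and S100A12, with 6 reads in KASUMI-1, of 1887 (866.9 to 5144). S100A13 went from 0.662 (0.594 to 0.737) to 1.06 (0.963 to 1.16). These intervals leave out the spread between libraries. In the fit of the 4 LSD1i libraries the log2 difference of S100A8 was 10.1, at 8.84 without THP-1 LSD1i at 72 h and 10.97 without KASUMI-1 LSD1i at 72 h. That of S100A9 was 9.37, at 8.01 without THP-1 LSD1i at 72 h and 10.08 without the 24 h library. That of S100A12 was 10.94, at 9.51 without THP-1 LSD1i at 72 h and 15.56 without KASUMI-1 LSD1i at 72 h.

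S100A10 in KASUMI-1 was near 0 at 72 h with either agent. It had 89 reads in each 6 h library, 1 read in vehicle at 72 h and 3 in LSD1i at 72 h. The 72 h to 6 h ratio was 0.0191 (interval 0.000477 to 0.109) in vehicle and 0.0323 (0.00653 to 0.0974) in LSD1i. S100A8 was higher at 72 h, at a ratio of 2.07 (1.37 to 3.15) in vehicle and 2.69 (1.78 to 4.17) in LSD1i. The mean levels of S100A10, S100A8 and S100A12 were under 2 CPM here, so these 3 do not enter the 2-fold count. S100A11, its neighbour, was 2.08-fold lower at 72 h in vehicle and 1.57-fold lower in LSD1i, and S100A6 1.87-fold and 1.67-fold lower. By the 2-fold rule 1 of the other 5 genes was lower in KASUMI-1 vehicle at 72 h (S100A11) and 0 higher, against 0.66% and 0.843% of all genes. In LSD1i 0 of the 5 were lower and 0 higher, against 0.496% and 1.87%. The 72 h folder goes with culture time here too, and each value is 1 library.

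Levels per length gave the order of the 8 genes. In THP-1 vehicle at 24 h it was S100A4 (688.9 RPKM), S100A11 (586.9), S100A9 (445.2), S100A6 (384.0), S100A8 (244.8), S100A10 (17.1), S100A12 (7.88) and S100A13 (3.96). In THP-1 vehicle at 72 h S100A6 (357.0 RPKM) passed S100A9 (212.4), and S100A13 (4.18) passed S100A12 (1.41). S100A4 and S100A11 led in vehicle at both times. Under LSD1i at 72 h S100A9 and S100A8 stood first and second, ahead of S100A4 (1776 RPKM), S100A11 (660.8) and S100A6 (641.4). In KASUMI-1 S100A11 (113.4 to 243.3 RPKM) and S100A4 (59.9 to 94.7) led in all 4 libraries, and S100A12 was last in 2 of them, with S100A10 last in both 72 h libraries. Each level is 1 library, so neighbours in these orders were not tested.

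Of 13 other S100 genes 12 had a read and 8 passed the filter on low counts. In KASUMI-1 1 of the 8 rose and 1 fell, where 7.02% of all genes were called higher and 5.09% lower, and in THP-1 1 rose and 0 fell, where 6.51% and 2.85% were. In KASUMI-1 S100Z rose by 1.14 ± 0.22 (adjusted p = 0.00346, edgeR), from 175 to 307 reads at 6 h and from 109 to 574 at 72 h, and S100P fell by 1.18 ± 0.29 (adjusted p = 0.0138). Without the KASUMI-1 72 h pair S100Z (0.76, adjusted p = 0.208) and S100P (-0.87, adjusted p = 0.144) were not called. In THP-1 the gene counted as risen was S100A5, by 1.86 ± 0.46, from 9 to 22 reads at 24 h and from 9 to 37 at 72 h. S100A5 passed the filter on low counts through its THP-1 LSD1i libraries alone, so it is given with no p. It was not called when either THP-1 pair was left out (2.25 for the 24 h pair, 1.35 for the 72 h pair). Without the pair as a block none of these 3 was called (1.21 and adjusted p = 0.102 for S100Z, -1.10 and 0.444 for S100P, 1.90 for S100A5). S100Z, on chromosome 5, had 1 or 2 reads in each THP-1 library.

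The remaining S100 genes were scarce. In THP-1 S100A1, S100A2, S100A3 and S100B had 8 to 36 reads in each library, and their fitted changes were -0.16 ± 0.37, 0.31 ± 0.39, -0.15 ± 0.39 and -0.29 ± 0.53. S100P, at 35 to 138 reads in THP-1, changed by -0.41 ± 0.28. S100A3 had no read in KASUMI-1, and S100A16 had 5 to 12 reads in each KASUMI-1 library and 1 in all of THP-1. S100A7, S100A7A and S100G had 1 read in all, S100A14 had 2 and S100A7L2 none. None of the values in this paragraph was called.

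The 8 genes span 1.65 Mb of NCBI36 (chr1:150222011-151873192), which holds 58 gene names that are not S100 genes, among them the genes of the skin barrier. Of these 45 had no read in any library, and 3 passed the filter: TCHH (trichohyalin), FLG2 (filaggrin-2) and PGLYRP4 (a peptidoglycan recognition protein). None of the 3 was called in THP-1. PGLYRP4, with 47 reads in all, passed the filter through its KASUMI-1 LSD1i libraries alone, so it is given with no p. It stood there at 0.254 CPM at 6 h and 0.682 CPM at 72 h, and at 0.17 CPM or less in every other library. Its fitted change in KASUMI-1 was 4.40 ± 0.94. It was not called without the 72 h pair (3.13) or without the pair as a block (4.59).

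**Figure D3:**
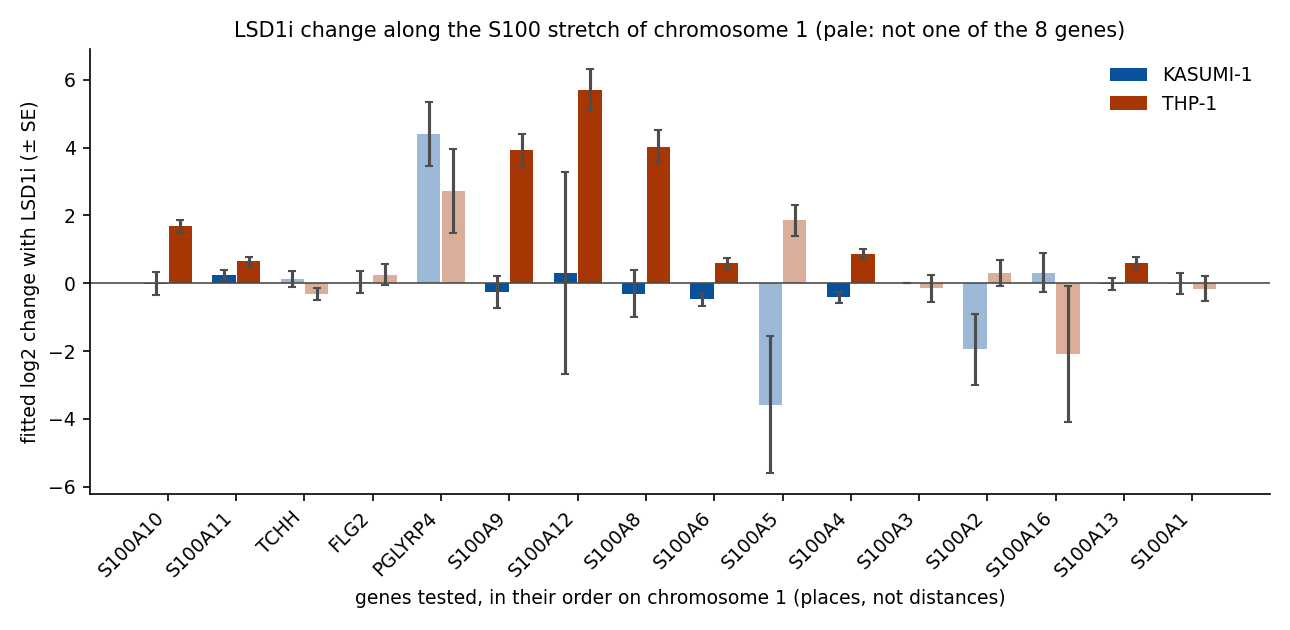
Fitted log2 change with LSD1i (y axis, bars with the approximate standard error) of the 16 tested genes of the stretch, in their order on chromosome 1 (places, not distances), for KASUMI-1 and THP-1. In THP-1 the bars of S100A9 (3.93), S100A12 (5.70) and S100A8 (4.03) stand above those of the other S100 genes; pale bars are not among the 8 genes.

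The gene lists that follow are described by their called members, to be read against the shares of all genes called: 6.51% higher and 2.85% lower in THP-1, and 7.02% and 5.09% in KASUMI-1. In the fit without the pair as a block, called in THP-1 were 2 of 5 receptors, 1 of 6 binding partners, 1 of 2 oxidase genes, 0 of 1 factor, 7 of 8 monocyte markers and 1 of 4 granulocyte markers. In KASUMI-1 these counts were 1 of 3, 0 of 3, 0 of 2, 0 of 4, 2 of 4 and 0 of 1.

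Receptors and sensors of the alarmins were read from a list of 12 genes, all tested. In THP-1 5 rose and 0 fell (6.51% and 2.85% of all genes), and in KASUMI-1 2 rose and 1 fell (7.02% and 5.09%), with a median of 0.21 and 0.00 beside -0.01 and 0.02 over all genes. LY96, which lets TLR4 bind its ligands, rose in both lines. It had 20 reads in THP-1 vehicle and 785 in LSD1i at 24 h and 3 and 572 at 72 h, and 7 and 119 in KASUMI-1 at 6 h and 3 and 268 at 72 h. LY96 did not pass the filter on low counts among the vehicle libraries alone, so it is given with no p. Its changes were 6.07 ± 0.34 in THP-1 and 4.68 ± 0.43 in KASUMI-1, and their difference (1.39 ± 0.76) was not called.

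CD14, the co-receptor of TLR4, rose in THP-1 by 2.40 ± 0.30 (adjusted p = 3.35e-05, edgeR), from 37 to 150 reads at 24 h and from 24 to 135 at 72 h. TLR4 itself, at 23.2 to 38.6 CPM in THP-1 and 2.48 to 4.99 CPM in KASUMI-1, and AGER, at 2.27 to 4.21 CPM over all 8 libraries, were not called in either line. In THP-1 CD36, a scavenger receptor, rose by 0.74 ± 0.15 (0.45 and not called without the 72 h pair) and the adaptor MYD88 by 0.59 ± 0.13 (not called when either THP-1 pair was left out, at 0.59 and 0.56). NPTN (neuroplastin), described as a receptor of S100A8 on keratinocytes, also rose (0.43 ± 0.13). It was named after its values were seen, and was not called when either THP-1 pair was left out. In KASUMI-1 ALCAM rose by 0.71 ± 0.12 and CD69 fell by 1.0 ± 0.16. Both stayed called when either KASUMI-1 pair was left out, with the spread of the gene then taken from THP-1.

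Of 20 binding partners of S100 proteins 15 were tested, and 6 rose and 0 fell in THP-1. ANXA2, the partner of S100A10, had the largest change of the list. It stood at 78.6 CPM in THP-1 vehicle and 768.1 CPM in LSD1i at 24 h and at 51.8 and 838.4 CPM at 72 h, a log2 change of 3.65 ± 0.17 (adjusted p = 1.45e-10, edgeR). In KASUMI-1 it was at 142.7 and 205.2 CPM at 6 h and at 151.1 and 197.8 CPM at 72 h, and the difference between the lines was 3.19 ± 0.22 (adjusted p = 5.74e-07), called also without the pair as a block.

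In vehicle S100A10 and ANXA2 differed between the lines in opposite directions. ANXA2 was lower in THP-1 than in KASUMI-1, with a log2 difference of -1.17 ± 0.21 (adjusted p = 0.000847, edgeR), and S100A10 was higher. AHNAK, a large protein that binds the complex of the 2, rose in THP-1 by 0.84 ± 0.12 (adjusted p = 0.000140). ANXA2 and AHNAK were the only 2 of the 6 called when either THP-1 pair was left out. ANXA1, a partner of S100A11, rose by 0.83 ± 0.14 (adjusted p = 0.000647), and PLAUR, the urokinase receptor, by 0.74 ± 0.14. Left without the 72 h pair ANXA1 (0.52, adjusted p = 0.256) was not called, nor was PLAUR without the 24 h pair (0.55, adjusted p = 0.217). In KASUMI-1 3 of the 15 rose: the plasminogen activators PLAT (1.39 ± 0.37) and PLAU (0.52 ± 0.15), and ANXA5 (0.55 ± 0.14). None of these 3 was called without the 72 h pair (1.12, 0.21 and 0.23) or, by a narrow margin, without the THP-1 24 h pair (adjusted p = 0.0509, 0.0696 and 0.0566), which shares the spread estimate. PLAU and ANXA5 also lost the call without the THP-1 72 h pair (0.0632 and 0.0508).

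Calprotectin carries arachidonic acid to the phagocyte NADPH oxidase and binds its subunits. Of its 7 genes 2 rose and 0 fell in THP-1. CYBB, the catalytic chain, went from 17.5 to 106.5 CPM at 24 h and from 5.13 to 109.7 CPM at 72 h (3.45 ± 0.28, adjusted p = 1.14e-07, edgeR), and NCF1 rose by 1.07 ± 0.25 (not called without the 24 h pair, at 0.58, or by DESeq2, at 1.05). In KASUMI-1 0 rose. CYBA, the smaller membrane chain, fell there by 0.48 ± 0.14, and was not called without the 72 h pair (-0.22) or when either THP-1 pair was left out (-0.50 in both cases). CYBB changed by 3.03 ± 0.46 more in THP-1 than in KASUMI-1 (adjusted p = 0.000912), not called without the pair as a block.

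The factors known to act on S100A8 and S100A9 in myeloid cells, 10 genes with KDM1A included, were called in 1 case in THP-1, where 6.51% of all genes were higher and 2.85% lower, and in 4 in KASUMI-1, where 7.02% and 5.09% were. In THP-1 GFI1, a repressor that recruits LSD1, rose by 0.52 ± 0.13 (adjusted p = 0.0147, edgeR), and was not called without the 24 h pair (0.37) or the 72 h pair (0.64). CEBPA (-0.14 ± 0.15), CEBPB (0.07 ± 0.16) and SPI1, which encodes PU.1 (0.20 ± 0.14), were not called in THP-1. CEBPA stood at 262.2 to 367.9 CPM in THP-1 and 9.24 to 13.1 CPM in KASUMI-1, a difference in vehicle of 4.92 ± 0.20 (adjusted p = 2.82e-08). CEBPE, a factor of granulocyte maturation, was lower in THP-1 vehicle, with a difference of -4.14 ± 0.22 (adjusted p = 1.36e-07).

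In KASUMI-1 2 of the 10 rose, GFI1B (1.73 ± 0.38) and GFI1 (0.63 ± 0.13), and 2 fell, CEBPD (-0.87 ± 0.19) and CEBPE (-0.80 ± 0.15). None of the 4 was called without the 72 h pair, at 1.07, 0.53, -0.45 and -0.57. The difference between the lines was called for CEBPE (1.17 ± 0.23) and CEBPD (0.92 ± 0.26) upward and for GFI1B (-2.53 ± 0.62) and HIF1A (-0.68 ± 0.17) downward, where 3.07% of all genes were called higher and 2.62% lower. None of these 4 differences was called without either THP-1 pair. Without the 24 h one they stood at 1.20, 1.08, -1.90 and -0.76, and without the 72 h one at 1.13, 0.75, -3.42 and -0.60.

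Monocyte markers were higher with LSD1i in THP-1, as the alarmin genes were. Their summed level over 12 genes was 1015 CPM in vehicle and 5142 CPM in LSD1i at 24 h, and 658.6 and 11500 CPM at 72 h. In KASUMI-1 the sum was 58.4 and 187.0 CPM at 6 h and 62.8 and 462.3 CPM at 72 h, higher with LSD1i, while S100A8 and S100A9 were not. In THP-1 8 of 10 tested markers rose, led by CD163 (5.61 ± 0.59, and 8.85 without the 24 h pair), CD86 (5.55 ± 0.25), VCAN (4.22 ± 0.31) and LYZ (3.42 ± 0.36). CD163, like LY96, did not pass the filter on low counts among the vehicle libraries alone. In KASUMI-1 4 of 10 rose, CD86 (4.16 ± 0.26), LYZ (2.82 ± 0.35), ITGAM (1.36 ± 0.29) and CSF1R (1.04 ± 0.16), the call of ITGAM ending without the 72 h pair (1.06). MRC1 had no read in any library, and FCN1 had none in 3 of the 4 THP-1 libraries. In bulk RNA more cells of a type and more RNA per cell cannot be told apart, and the part of such markers in the S100 values was not tested.

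Granulocyte markers as a sum were lower, not higher, with LSD1i in THP-1. Their summed level over 13 genes, neutrophil granule proteins in the main, was 3583 CPM in THP-1 vehicle and 2623 CPM in LSD1i at 24 h, and 4664 and 2482 CPM at 72 h. In KASUMI-1, where S100A8 and S100A9 are low, it was 9383 to 13250 CPM. Single markers went both ways: in vehicle 3 of the 8 tested were higher in THP-1 and 3 lower, where 30.1% and 26.4% of all genes were. On the log2 scale CAMP (4.87), CTSG (2.79) and AZU1 (1.56) were higher there, and MPO (-9.14), CSF3R (-2.50) and PRTN3 (-0.74) lower. FCGR3B, a marker of mature neutrophils, had no read in any library. In THP-1 1 of 8 tested genes rose, CAMP (1.40 ± 0.32, not called by DESeq2, at 1.46, or without the 72 h pair, at 0.75). The 3 that fell were CTSG (-1.28 ± 0.17), PRTN3 (-0.70 ± 0.18) and CSF3R (-0.48 ± 0.14), and PRTN3 and CSF3R were not called when either THP-1 pair was left out. In KASUMI-1 CTSG alone fell (-0.55 ± 0.16), and not without any 1 of the KASUMI-1 72 h (-0.23), THP-1 24 h (-0.56) or THP-1 72 h (-0.56) pairs.

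**Figure D4:**
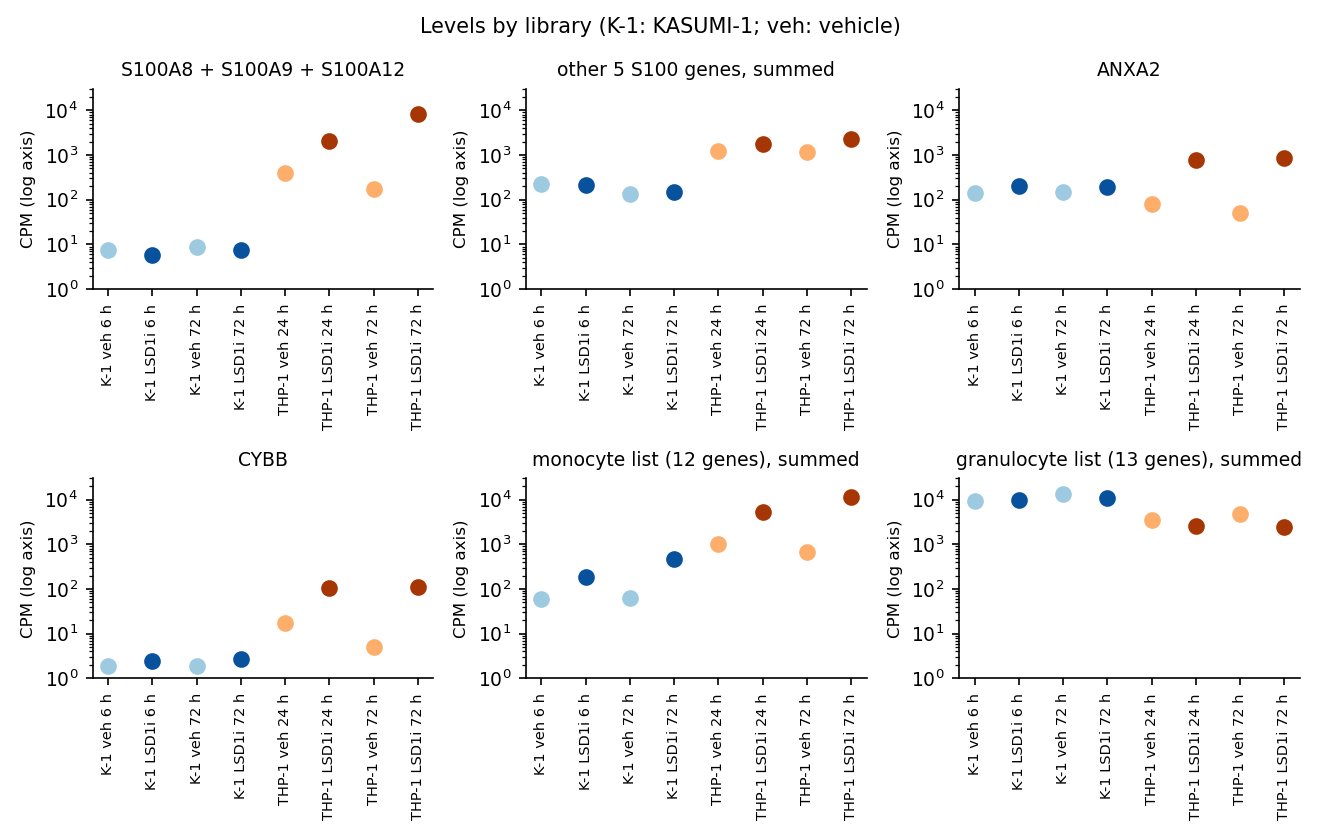
Level in each of the 8 libraries (x axis) of the 3 alarmin genes summed, the other 5 S100 genes summed, ANXA2, CYBB, and the summed monocyte and granulocyte lists, in CPM on a log axis. The monocyte list is higher with LSD1i in all 4 pairs, up to 11500 CPM in THP-1 at 72 h, while the alarmin sum is higher with LSD1i in THP-1 and stays between 5.90 and 8.68 CPM in KASUMI-1.

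Likeness of pattern was measured over 10980 genes with a current symbol and a mean of at least 2 CPM, as Pearson's r of log2 CPM over the 8 libraries. These share lines and pairs, so r is a description. The genes most like S100A8 were S100A9 (r = 0.994), CTSH (cathepsin H, 0.992), FCAMR (an Fc receptor, 0.992), VCAN (versican, 0.991) and ALDH9A1 (0.990). S100A9 shared CTSH, FCAMR and VCAN with it and had MPEG1 (perforin-2, 0.987) after them. S100A12 was most like VCAN (0.985), CYBB (0.985), KCTD17 (0.982), STK4 (0.981) and HLA-DRB5 (0.980). With Spearman's correlation 1 of each 5 remained among the top 5. That top 5 was tied: 7 genes for S100A8, 7 for S100A9 and 37 for S100A12 were at or above the fifth value.

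By the 4 pair ratios alone, which leave out the level of the line, S100A8 and S100A9 were nearest to each other, with a root mean square difference of 0.143 on the log2 scale. Next to S100A8 came VCAN (0.588) and MCUB (0.820), and next to S100A9 VCAN (0.533) and CYBB (0.742). VCAN, a matrix proteoglycan made by monocytes, stood at 5.13 and 47.8 CPM in THP-1 vehicle and LSD1i at 24 h, and at 4.44 and 168.5 CPM at 72 h. S100A12 had no such near neighbour: SLC7A8 (1.56), CD1A (1.63) and S100A8 (1.66) were the closest. Pearson's r over the 8 libraries, in contrast, takes in the level of the line. Among the 8 genes this r between any 2 of the first 7 lay between 0.787 and 0.994. S100A13 stood apart by this r, at -0.29 to 0.08 with each of the others, and it alone was not higher in THP-1 vehicle. Its pair log2 ratios in THP-1 were 0.46 at 24 h and 0.73 at 72 h, beside 0.57 and 0.73 for S100A11.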

How the data were processed

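The authors deposited 1 table of whole-number read counts per gene name for the 8 libraries, made, per the file headers, with featureCounts 1.5.2 on exons of Ensembl release 54 (NCBI build 36), with no strand option and no option for reads that map to several places. The kit was TruSeq, per the labels' protocols. Per the submitters' processing notes the tools were FastQC 0.10.0, TopHat2 2.0.10, Subread and edgeR, on hg18. Older names were matched to current symbols for 3184 of 33045 names.

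The 8 genes and all lists were chosen with earlier results of these data known. Named were all 8, the other S100 genes with a read, the called genes of each list (up to 4 per line, by size) and the likest genes; differences between the lines and HIF1A were named after their values were seen. A gene of the oxidase list is not reported here. Counts were tested with edgeR 4.0.16 (quasi-likelihood F-test, R 4.3.3, TMM, filterByExpr at a minimum count of 10, Benjamini-Hochberg at 0.05). The fit had 4 pair terms and 1 LSD1i coefficient per line, with 2 residual degrees of freedom, 16060 genes and a common dispersion of 0.0115. Pairs come from line and time, and the labels carry no replicate numbers. Vehicle libraries (15456 genes) and LSD1i libraries (15540 genes) were fitted apart, also with 2 residual degrees of freedom, so the tests lean on a spread shared across genes. Approximate standard errors are log2 change over the root of the F statistic. Single pairs had no test: ratios of TMM-scaled CPM carry exact conditional binomial 95% intervals. RPKM used the table's length column. Scripts were tested on simulated data. Alternatives were RLE normalization, no filter on low counts, no pair term, DESeq2 1.42.0, leaving out each pair or library, a prior count of 0.5, library totals and Spearman's correlation.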

Additional observations from a re-analysis of the deposited data

Results flagged for a closer look

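Among the genes of the lists the change with LSD1i differed between THP-1 and KASUMI-1 by the fitted contrast of the lines, on the log2 scale. It was higher in THP-1 for VCAN (4.04), ANXA2 (3.19), CYBB (3.03), ITGAM (1.38), CEBPE (1.17), PLAUR (1.07), ANXA1 (0.97) and CEBPD (0.92). It was lower for GFI1B (-2.53), the KASUMI-1 markers KIT (-1.91) and POU4F1 (-1.68), ALCAM (-0.76) and HIF1A (-0.68). Without the pair as a block ANXA2 alone of these 13 genes was called. Leaving out the THP-1 72 h pair ended the calls of ANXA1 (0.66), KIT (-1.14), POU4F1 (-1.54), ALCAM (-0.72) and ITGAM (1.44), and leaving out the 24 h pair those of PLAUR (0.89), ALCAM (-0.81) and ITGAM (1.28). ITGAM was not called without the KASUMI-1 6 h pair (0.78), nor were CEBPD (0.51), GFI1B (-1.87) and HIF1A (-0.58) without the KASUMI-1 72 h pair. KIT (-1.95) and CEBPD (0.95) were not called by DESeq2. As given with the factors above, CEBPE, CEBPD, GFI1B and HIF1A were also not called when either THP-1 pair was left out. Of all genes 3.07% were called higher and 2.62% lower in this contrast. No group had 4 or more libraries, so single libraries were not screened for outlying values.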

How the results depend on the processing

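Without the pair as a replicate block, 96 genes were higher and 4 lower in KASUMI-1 (1128 and 817 with it), 381 and 73 in THP-1 (1046 and 457), and 18 and 4 in the difference between the lines (493 and 421). DESeq2 called 719 genes higher in KASUMI-1 and 249 lower in THP-1, and without the filter on low counts 653 were lower in the difference. With library totals in place of TMM, 130 genes were 2-fold higher (86) in KASUMI-1 at 6 h and 172 lower (114) at 72 h, and 119 higher (207) and 87 lower (55) in KASUMI-1 LSD1i between 6 and 72 h. That scaling moved the median of all genes by 0.11 in the KASUMI-1 6 h pair, by -0.13 in the THP-1 72 h pair and by -0.16 between the KASUMI-1 LSD1i libraries, and the uncalled log2 ratio of S100A10 at 6 h went from -0.04 to 0.06. The cause of these moves was not tested.

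Leaving out 1 pair gave 245 to 1630 higher and 61 to 1111 lower genes in KASUMI-1, 347 to 1371 and 39 to 840 in THP-1, and 100 to 831 and 66 to 874 in the difference.

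Uncalled values changed sign as follows. In KASUMI-1 S100A12 was -0.56 by DESeq2, -4.20 without the 72 h pair, and 1.65 with the 6 h pair left out. S100A1 was 0.0017 without the filter, and went from -0.14 without the 6 h pair to 0.0829 without the 72 h pair. S100A10 went from 0.68 to -0.0493 and S100A13 from 0.11 to -0.14 in the same order. In THP-1, leaving out first the 24 h and then the 72 h pair, CEBPB was -0.13 and 0.22, SPI1 -0.064 and 0.42, S100A1 0.23 and -0.53, S100B 0.37 and -0.91, KDM1A -0.26 and 0.0744, CEBPA -0.51 and 0.19, and TLR4 0.50 and -0.0733. S100A13 between the LSD1i libraries was -0.061 without THP-1 LSD1i at 72 h and 0.28 without THP-1 LSD1i at 24 h. Genes with under 10 reads in a line, S100A12 in KASUMI-1 among them, are limited by depth.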
